A study of Mus musculus with 2 samples.

Results

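Grm3 (ENSMUSG00000003974) was examined in the tumour-like cells of 2 libraries from mouse tumours, a control library and a library with an shRNA (a short hairpin RNA) that targets Gfpt2. It is 1 gene of the 34097 listed in each library and was chosen by its measured level, which differed between the libraries in tumour-like cells, so that difference is given as a description and no test rests on it. The tumours of both libraries were of LLC, the mouse Lewis lung carcinoma line, and were labelled as lung cancer xenografts. The library with the hairpin is called the knockdown library. The hairpin, the mice, the time of growth and whether a library pools tumours were not given in the sources used here. Tumour-like cells were those with 0 unique molecular identifiers (UMIs) of Ptprc, the leukocyte antigen CD45, and of the T cell gene Cd3e, under 5 UMIs of the myeloid gene Lyz2 per 10000, at least 5000 UMIs in all and at most 20% mitochondrial UMIs. This rule kept 5146 of 11977 control cells and 5332 of 12853 knockdown cells.

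Grm3 encodes mGlu3, a metabotropic glutamate receptor of group II. The receptor sits in the plasma membrane, binds glutamate and the dipeptide N-acetylaspartylglutamate (NAAG), and acts through Gi/o proteins that lower the output of adenylyl cyclase, so less cyclic AMP is made and protein kinase A is less active. It is best known from neurons and astrocytes. Gfpt2 encodes an enzyme that commits fructose 6-phosphate and glutamine to the hexosamine pathway and releases glutamate in doing so.

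With 1 library in each group there was no spread between replicates, and all intervals below are 95% intervals that cover counting error only. The control library held 165824226 UMIs and the knockdown library 138402860, with medians of 10312 and 7496 UMIs per cell, and 37 barcodes occurred in both libraries, 6 of them as tumour-like cells in both. In tumour-like cells the targeted gene, Gfpt2, had 219 control and 60 knockdown UMIs, a log2 ratio of knockdown over control of -1.60 (-2.04 to -1.18) of its UMIs per 1000000 UMIs of the same cells (CPM). Of the 219 control UMIs, 137 lay in a cluster of 177 control cells, state 14 below, which had no knockdown cell. The ratio thus rests in large part on cells found in the control library only. Outside that cluster 62 control and 52 knockdown cells had a Gfpt2 UMI. The markers matched the label of the cells only in part. Hmga2, a chromatin protein used here as an LLC marker, had a UMI in 73.6% of control and 69.9% of knockdown tumour-like cells, whereas the epithelial genes Krt8, Krt18 and Epcam were nearly absent, with at most 9 UMIs each per library, and Krt7 had 116 and 84 UMIs, in 1.67% and 1.13% of the cells. Of 7 fibroblast genes, Col3a1 was found in 94.9% and 97.6% of the cells and Dcn in 92.2% and 92.2%, Pdgfra in 45.0% and 44.2%, Pdgfrb in 27.9% and 31.6%, Col1a1 in 13.6% and 14.5%, Col1a2 in 6.51% and 10.1% and Lum in 0.428% and 0.431%. Xist, expressed by female cells, stood at 3.67 and 4.36 CPM in tumour-like cells against 341 and 285 CPM in the macrophages. Myeloid genes were also detected widely at low levels. Lyz2 had a UMI in 67.5% and 63.9% of the tumour-like cells, and the complement gene C1qa in 60.4% and 56.8%. At least 1 of 5 macrophage genes was seen in 87.8% and 84.5% of them. These 5 summed to 137 and 157 CPM, against 14325 and 12709 CPM in the macrophages. The source of this RNA was not tested.

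Grm3 gave 3088 UMIs over the control tumour-like cells and 5639 over the knockdown tumour-like cells. Control cells thus had 28.4 CPM (27.4 to 29.5) and knockdown cells 62.4 CPM (60.8 to 64.0). The ratio was 2.19-fold (2.10 to 2.29), a log2 ratio of 1.13 (1.07 to 1.20). Tumour-like cells held 75.2% of the gene's 4107 control UMIs and 72.9% of its 7735 knockdown UMIs, beside 65.5% and 65.3% of the UMIs of all genes. Among the 12448 genes with at least 100 UMIs in 1 library over these cells, Grm3 was number 44 from the top by this ratio. Bgn, which encodes the matrix proteoglycan biglycan, lay next above it at 1.15, and Esm1, which encodes endocan, lay next below it at 1.13. Of all genes tested, 2.07% were at least 1.5-fold higher in the knockdown library (258 genes) and 0.763% were at least 1.5-fold lower (95 genes), with a median log2 ratio of 0.04. Since the ratio chose the gene, nothing is read from its place in this order. Some fibroblast and pericyte markers were also higher in knockdown tumour-like cells. Of the fibroblast list (2509 and 2836 CPM summed), Col1a2 had a log2 ratio of 1.03, Pdgfrb of 0.48, Col1a1 of 0.45, Pdgfra of 0.28, Col3a1 of 0.23 and Dcn of 0.08, and Lum, with fewer than 100 UMIs in each library, of -0.25. Of the pericyte list (49.5 and 50.4 CPM summed), Rgs5 (34 and 121 UMIs) had a log2 ratio of 2.10 and Acta2 (154 and 339 UMIs) of 1.40, Cspg4 of -0.08, and Notch3 had 5 and 13 UMIs. The share of cells with a UMI hardly differed for Rgs5 (0.466% and 0.488%) and Acta2 (1.59% and 1.58%). The part of these fibroblast and pericyte markers in the Grm3 difference was not tested.

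The knockdown level was the higher in all 4 depth ranges examined. Among tumour-like cells with 5000 to 10000 UMIs, control cells had 26.0 CPM of Grm3 and knockdown cells 69.0 CPM, at a log2 ratio of 1.41 (1.13 to 1.69). Between 10000 and 20000 UMIs the levels were 25.4 and 58.8 CPM, at a log2 ratio of 1.21 (1.09 to 1.32). Between 20000 and 40000 they were 29.9 and 65.7 CPM, at a log2 ratio of 1.14 (1.05 to 1.23). Above 40000 UMIs they were 30.4 and 54.5 CPM, with the smallest log2 ratio of the 4, 0.84 (0.64 to 1.04). Control levels thus spanned 25.4 to 30.4 CPM over depth, and each knockdown level lay above all of them. The log2 ratio was smaller in each deeper range. These ranges only divide the contrast that chose the gene.

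Most tumour-like cells showed no Grm3 UMI. As deposited, 25.6% of control cells (1316) and 41.4% of knockdown cells (2209) had at least 1, at median depths of 18969 and 14772 UMIs. Because such shares depend on depth, each cell was then thinned at random to 5000 UMIs, and 10.7% of control cells (9.91 to 11.6) and 21.8% of knockdown cells (20.7 to 23.0) kept a Grm3 UMI. The log2 ratio of these shares was 1.02, and that of the shares before thinning was 0.70. In macrophages, cells with at least 10 UMIs of the complement genes C1qa, C1qb and C1qc together per 10000, the thinned shares were 4.23% of 2957 control cells and 13.7% of 2387 knockdown cells with enough UMIs. Tumour-like shares were above these in both libraries.

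Grm3 UMIs were spread unevenly over the cells. After thinning, the variance of the count divided by its mean (the Fano factor, 1 for Poisson counts) was 1.55 in control and 1.92 in knockdown tumour-like cells. The intervals of CPM and of CPM ratios assume Poisson counts, so they are too narrow for counts this uneven. Cells with at least 2 thinned UMIs made up 2.41% of control cells (124) and 6.66% of knockdown cells (355), and cells with at least 3 numbered 34 and 131. The most in 1 thinned cell was 6 for the control and 11 for the knockdown library. Among cells that kept a UMI, control cells averaged 1.32 UMIs and knockdown cells 1.52. Both the share of cells with Grm3 and the mean count in cells that kept a UMI were higher in the knockdown library. Even for Poisson counts the latter rises with the mean over all cells (0.142 control, 0.331 knockdown). A separate rise within cells is therefore not read from it. Without thinning, cells with at least 5 UMIs (161 control, 3.13%; 303 knockdown, 5.68%) carried 36.0% of the control and 40.2% of the knockdown Grm3 UMIs, and single cells reached 27 and 44.

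**Figure D1:**
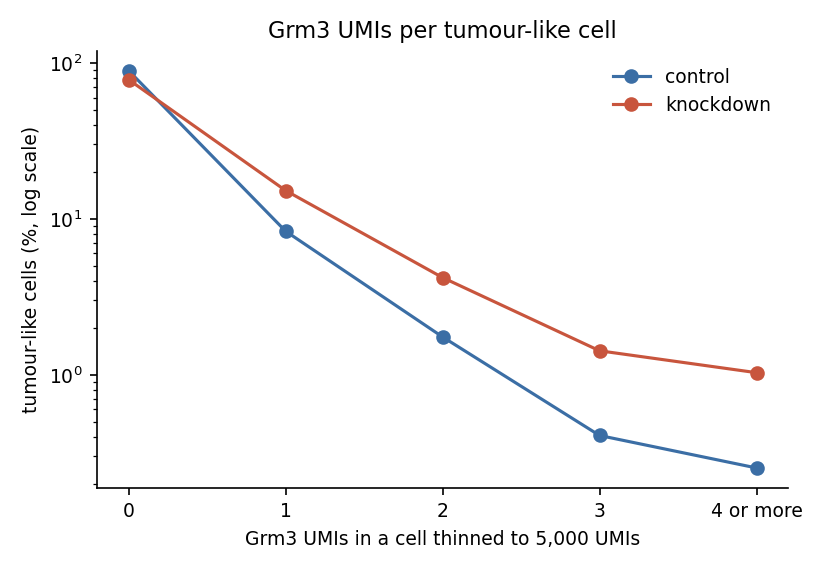
Share of tumour-like cells (log scale, percent) by the number of Grm3 UMIs left after each cell was thinned to 5000 UMIs, with 1 line per library. Cells with 0 UMIs were the most frequent in both libraries, and at every count from 1 upwards the knockdown library had the larger share, for example 355 against 124 cells with at least 2.

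To place Grm3 among the forms of tumour-like cells, the cells of both libraries were clustered together without Grm3, Gfpt2, Xist, the mitochondrial genes and the genes that differed at least 1.5-fold between the libraries. With no minimum of UMIs, this fold took out 6888 genes, most of them sparse. This gave 16 states, which are called by number and leading genes. In 13 of them each library had at least 50 cells. Grm3 was detected in all 13 in both libraries, and no state held the gene alone.

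Grm3 was highest in state 11, led by Ung, Cdc6, Mcm5, Mcm3 and Cdt1, genes of DNA repair and of the licensing of replication origins. There it reached 49.5 CPM (43.8 to 55.8) over 215 control cells and 118 CPM (106 to 131) over 144 knockdown cells, and 17.7% and 37.5% of the thinned cells had a UMI. State 7, led by the mitotic genes Cdc20, Cenpa and Ccnb2, came next with 40.1 and 82.3 CPM. State 1, led by the histone genes H1f5 and H2ac24 with the replication genes Pclaf and Tk1, had 35.5 and 66.9 CPM. State 3 had similar levels, 35.2 and 69.5 CPM over 648 control and 490 knockdown cells. Its leading genes, Cryab, Lrrn4cl, Nppb, Timp3 and Tnnt2, are not genes of cell division. Genes of cell division did not always go with a high level: state 10, led by Cenpf, Ube2c and Aurka, had 25.8 and 64.1 CPM.

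At the low end, the levels in state 6, led by Ptn, Fabp4 and Entpd2, were 14.7 CPM (11.7 to 18.3) for control and 41.6 CPM (36.7 to 47.0) for knockdown cells. State 5, led by the membrane peptidase gene Mme, had 15.7 and 42.2 CPM. State 4, led by Cilp, the complement gene C3 and the collagen gene Col1a1, was low in the knockdown library at 46.3 CPM but not among the lowest in the control library, at 23.1 CPM. State 14, led by Krt16, Klk8 and Spp1, had 177 control cells and no knockdown cell, and at 8.18 CPM (5.67 to 11.4) it had the lowest control level. State 8, led by Ero1a, an oxidase of protein folding in the endoplasmic reticulum, had 21.8 CPM in control cells and 61.5 CPM in knockdown cells, near the 62.4 CPM of all knockdown tumour-like cells.

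The order of the states was not the same in both libraries, and its steps were mostly small. State 12, led by Car6, Gadd45a and Plaur, lay near the bottom in the control library (16.6 CPM) and near the top in the knockdown library (79.5 CPM). Across the 13 states the 2 levels had a Pearson r of 0.80 and a Spearman rho of 0.74, as a description only, since the points of each library come from the same preparation. From the highest to the lowest control level, every state's interval overlapped that of its neighbour except the last, state 14. In the knockdown library the top, state 11, was the only state whose interval stood clear of the next, and all later neighbours overlapped. Because Grm3 UMIs were spread unevenly over cells, these Poisson intervals are too narrow. The highest level was 6.05-fold the lowest in the control library (log2 2.60, 2.08 to 3.16) and 2.83-fold the lowest in the knockdown library (log2 1.502, 1.27 to 1.74). The control range includes state 14, which has no knockdown cell. Over the 13 states with at least 50 cells in both libraries it was 3.36-fold (log2 1.75, 1.39 to 2.12). With a coarser clustering at resolution 0.5 the knockdown range shrank to a log2 value of 0.91.

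In each of the 13 states Grm3 was higher in the knockdown library, with the interval of the log2 ratio above 0, though such Poisson intervals are too narrow here. The ratios ran from 0.91 in state 1 to 2.26 in state 12 with a median of 1.31. State 12 had its 16.6 CPM over 242 control cells and its 79.5 CPM (64.0 to 97.6) over only 55 knockdown cells. Its interval, 1.85 to 2.67, touched those of states 6 and 13. With the states given equal weight in both libraries, by their pooled share of UMIs, the levels were 28.9 and 64.5 CPM and the log2 ratio was 1.16, against 1.13 without this step. These are ratios of the contrast that chose the gene. State 13 was led by the leukocyte genes Cd74, Bcl2a1b and Cd52, and state 16 (6 control and 9 knockdown cells) by endothelial genes. Without these 2 states the log2 ratio was 1.13, and without state 14 it was 1.09.

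**Figure D2:**
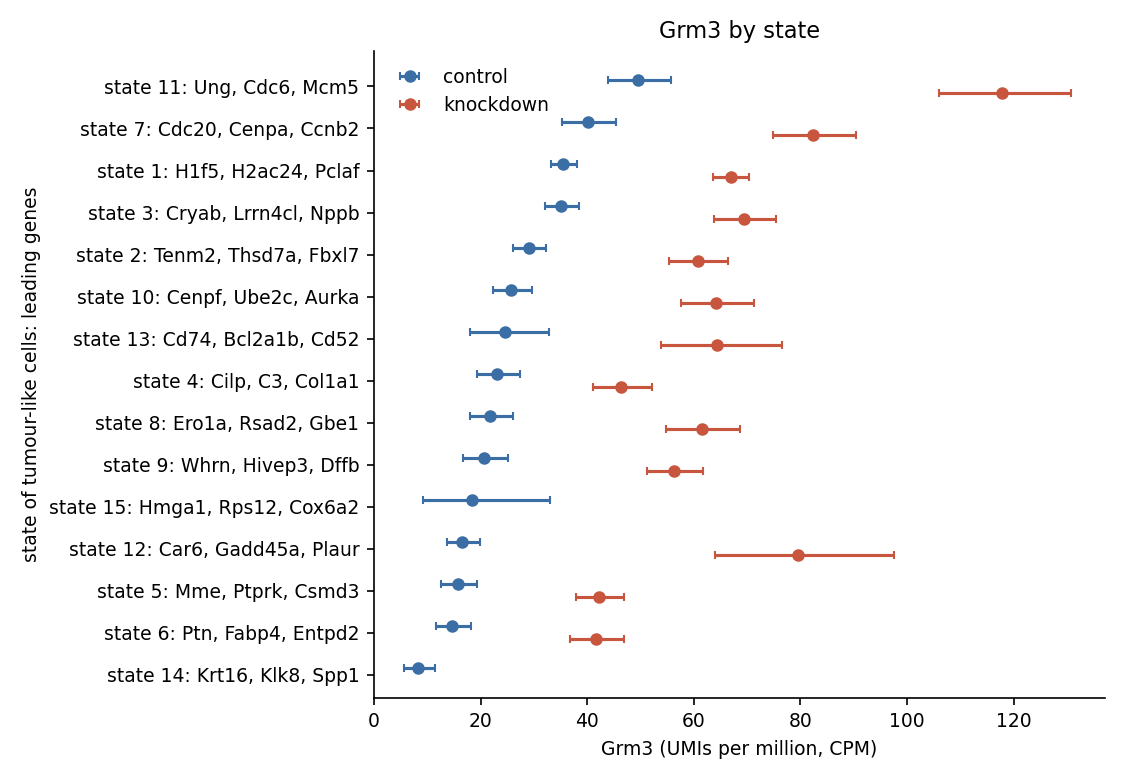
Grm3 level in CPM with its 95% counting interval in each state of tumour-like cells, for each library with at least 50 cells in the state, ordered by the control level. State 11 is highest in both libraries (49.5 and 118 CPM), state 14 has a control value only (8.18 CPM), and each knockdown level lies to the right of the control level of the same state.

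Gfpt2 itself was sparse, and the cells in which it was seen had a lower CPM of Grm3 in both libraries. In the 137 control cells with a Gfpt2 UMI, Grm3 stood at 12.6 CPM (9.07 to 17.0), against 28.9 CPM (27.9 to 29.98) in the 5009 control cells without one. In the knockdown library the levels were 37.2 CPM (26.3 to 51.0) in 52 cells with and 62.7 CPM (61.0 to 64.3) in 5280 cells without a Gfpt2 UMI. Cells with Gfpt2 were deeper, with medians of 21968 against 18898 UMIs for control and 18434 against 14710 for knockdown cells. State 14 held 137 of the 219 control Gfpt2 UMIs. Outside it the 62 control cells with Gfpt2 had 16.5 CPM of Grm3 (10.7 to 24.3). After thinning to equal depth, 6.57% of control cells with Gfpt2 (3.05 to 12.1) had a Grm3 UMI, against 10.9% without (10.0 to 11.8), and 9.68% with Gfpt2 outside state 14 (3.63 to 19.9). In knockdown cells the thinned shares were 13.5% (5.59 to 25.8) and 21.9% (20.8 to 23.1). These intervals overlapped in both libraries.

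Grm3 was also found outside the tumour-like cells. Over the 4859 control and 5615 knockdown macrophages it had 578 and 1387 UMIs, or 14.1 CPM (12.97 to 15.3) and 38.9 CPM (36.9 to 41.0). Tumour-like cells exceeded macrophages 2.02-fold (1.85 to 2.21) in the control library and 1.60-fold (1.51 to 1.70) in the knockdown library, log2 ratios of 1.01 and 0.68. Without the cells of highest Scrublet doublet score the log2 ratios were 2.16 and 1.13. A Grm3 UMI occurred in 6.65% and 14.1% of the macrophages, at median depths of 5996 and 4330 UMIs. Hmga2, the LLC marker, had a UMI in 19.0% of the control and 24.6% of the knockdown macrophages, and Ptprc in only 70.2% and 59.6%. The source of these Hmga2 UMIs was not tested.

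The level of Grm3 in the macrophages fell as the C1q RNA of the cells rose. With 10 to 20 C1q UMIs per 10000, Grm3 stood at 26.8 CPM (403 control cells) and 75.0 CPM (578 knockdown cells), and Hmga2 at 236 and 229 CPM, close to its 221 and 218 CPM in tumour-like cells. In this lowest bin Ptprc had a UMI in only 40.0% and 32.0% of the cells, at median depths of 1426 and 3140 UMIs. With 20 to 50, Grm3 stood at 24.9 and 54.3 CPM, and with 50 to 100 at 20.4 and 40.0 CPM. With 100 or more it was at 5.82 and 19.5 CPM, and Hmga2 at 19.6 and 29.4 CPM. The level was lower in each bin with more C1q, in both libraries, and lowest in the 3320 control and 3170 knockdown cells richest in C1q.

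In the strictest set, cells with at least 100 C1q UMIs per 10000 and a Ptprc UMI, Grm3 remained at 5.29 CPM (4.26 to 6.49) over 2507 control cells and 18.7 CPM (16.4 to 21.3) over 2252 knockdown cells. Against this set, which was chosen after the data were seen, tumour-like cells were 5.38-fold higher in the control library and 3.33-fold higher in the knockdown library. The thinned shares of cells with Grm3 were 2.42% of 1733 control and 7.88% of 1091 knockdown cells of the set. These were its cells with at least 5000 UMIs and at most 20% mitochondrial UMIs. In 2294 control and 2083 knockdown cells of the set with no Hmga2 UMI, the levels were 4.64 and 16.1 CPM. Relative to tumour-like cells, Grm3 in the strict set was at 18.6% (control) and 30.1% (knockdown), while Hmga2 was at 8.75% and 11.7%. There were thus 27.4 and 73.8 Grm3 UMIs per 100 Hmga2 UMIs in the strict set, against 12.9 and 28.6 in tumour-like cells. The median gene of 5900 with at least 20 CPM in tumour-like cells was at 69.6% and 66.5%. RNA from outside the cell and doublets were not tested as sources of these UMIs.

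The knockdown library was higher in the macrophages too. The log2 ratio was 1.47 (1.32 to 1.61) over all macrophages and 1.83 (1.47 to 2.19) in the strict set. Cells with Cd3e and under 10 C1q UMIs per 10000 had 22.6 CPM (482 control cells) and 45.8 CPM (398 knockdown cells), with Hmga2 at 173 and 150 CPM. A Grm3 UMI was seen in 44 and 55 of these cells, and with every cell weighted equally their means were 12.1 and 21.9 CPM.

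**Figure D3:**
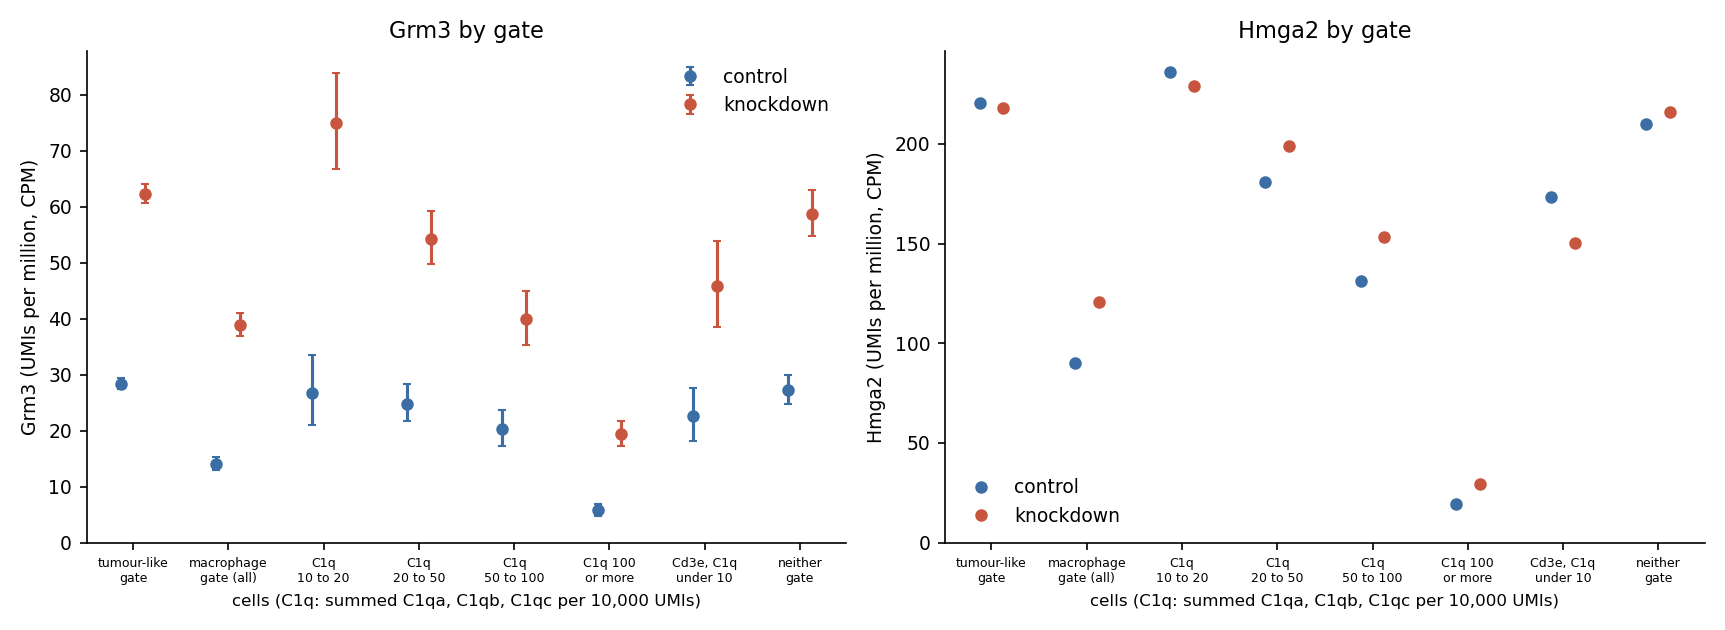
Levels in CPM of Grm3 (left, with 95% counting intervals) and Hmga2 (right) in tumour-like cells, in all macrophages, in macrophages by their C1q UMIs per 10000, in Cd3e cells and in cells of neither rule, for both libraries. Both genes are lowest in the cells richest in C1q (Grm3 5.82 and 19.5 CPM), where the knockdown point for Grm3 is still above the control point.

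The other receptors of the family were scarce in tumour-like cells. Grm7, a receptor of group III that also couples to Gi/o, was the only 1 of the 7 other metabotropic receptors with at least 100 UMIs in a library, with 136 control and 197 knockdown UMIs, 1.25 and 2.18 CPM. Its log2 ratio was 0.80 (0.48 to 1.13), past the 1.5-fold line. Grm2, the other receptor of group II, had 1 UMI in each library. Grm5 had 3 and 8, Grm4 had 2 and 4, Grm8 had 2 and 11, and Grm6 had none. Among the 18 ionotropic glutamate receptor genes, 3 were tested and none passed 1.5-fold: the kainate receptor gene Grik3 had 920 and 843 UMIs, the delta receptor gene Grid1 had 1435 and 1290, and the NMDA receptor gene Grin2d had 215 and 192.

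Next came the genes that carry the receptor's signal. All 5 Gi/o alpha subunit genes were tested and none passed 1.5-fold in either direction, with a median log2 ratio of -0.02. Gnai2 stood at 395 and 390 CPM, and Gnai1 had the highest ratio of the list at 0.42 (0.23 to 0.60). Of 10 adenylyl cyclase genes 4 were tested (Adcy3, Adcy6, Adcy7 and Adcy9) with none past the line, and Adcy7 had the highest ratio, 0.30 (0.24 to 0.36), from 40.2 to 49.6 CPM. The protein kinase A genes (5 of 6 tested) had a median of 0.07, and Prkar2b, a regulatory subunit, was at 0.33. The phosphodiesterases that break down cyclic AMP (7 of 14 tested) also had a median of 0.07. Pde1a, a phosphodiesterase switched on by calcium and calmodulin, came nearest to the lower line, with 38.0 CPM in control cells and 26.0 CPM in knockdown cells, at a log2 ratio of -0.55 (-0.62 to -0.48).

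Regulators of such receptors included 1 gene past the upper line among 12 tested of 16, where 2.07% of all genes tested were past it. Rgs2, which speeds up the shut-off of G proteins, had 505 control and 637 knockdown UMIs, 4.65 and 7.05 CPM, at a log2 ratio of 0.60 (0.43 to 0.77). Rgs16, of the same family, was just under the line at 0.55 (0.47 to 0.64), with 19.1 and 28.1 CPM. Rgs2 was far higher in macrophages, at 190 CPM in each library. The kinase Grk2 was at -0.21, and Arrb1 and Arrb2, the arrestins that uncouple receptors, were at -0.22 and 0.10 with intervals that include 0.

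The genes for supply and cleavage of the receptor's ligands included 1 past the upper line among 7 tested of 12, beside the same 2.07% of all genes. Naalad2, of the NAAG peptidase family, had 216 control and 344 knockdown UMIs, 1.99 and 3.81 CPM, at a log2 ratio of 0.94 (0.69 to 1.19). Folh1, which encodes the main NAAG peptidase, had 2 and 3 UMIs. The mitochondrial aminotransferase gene Got2 stood at 79.8 and 69.7 CPM. Of the 14 glutamate and glutamine transporter genes 7 were tested with none past the line. Slc7a11, which exports glutamate in exchange for cystine, stood at 17.8 and 18.0 CPM, and the glial glutamate transporters Slc1a3 and Slc1a2 had 12 and 13 control and 5 and 5 knockdown UMIs. In the hexosamine pathway Gfpt2 was the only gene of 7 past the line, with 137 of its 219 control UMIs in state 14, which has no knockdown cell. Gfpt1, which catalyses the same step, stood at 30.8 and 31.6 CPM.

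Over the 10 lists together, 58 of 109 genes were tested, 3 were at least 1.5-fold higher (Grm7, Naalad2 and Rgs2) and 1 was lower (Gfpt2). That lower call rests in large part on state 14, which has no knockdown cell. Over all genes tested, 2.07% were higher and 0.763% lower by this fold. The lists' median log2 ratio was 0.03, beside 0.04 over all genes tested. Grm3 is not a member of these lists. Markers of the cell types in which the receptor is best known were low: of 8 glial markers Aqp4 and Olig2 were at 0 in both libraries, and the 8 summed to 3.37 CPM in control and 2.66 CPM in knockdown tumour-like cells. Of 5 neuronal markers, Tubb3, a tubulin gene that dividing cells can also express, made up nearly all of the summed 85.7 CPM (control) and 90.9 CPM (knockdown).

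**Figure D4:**
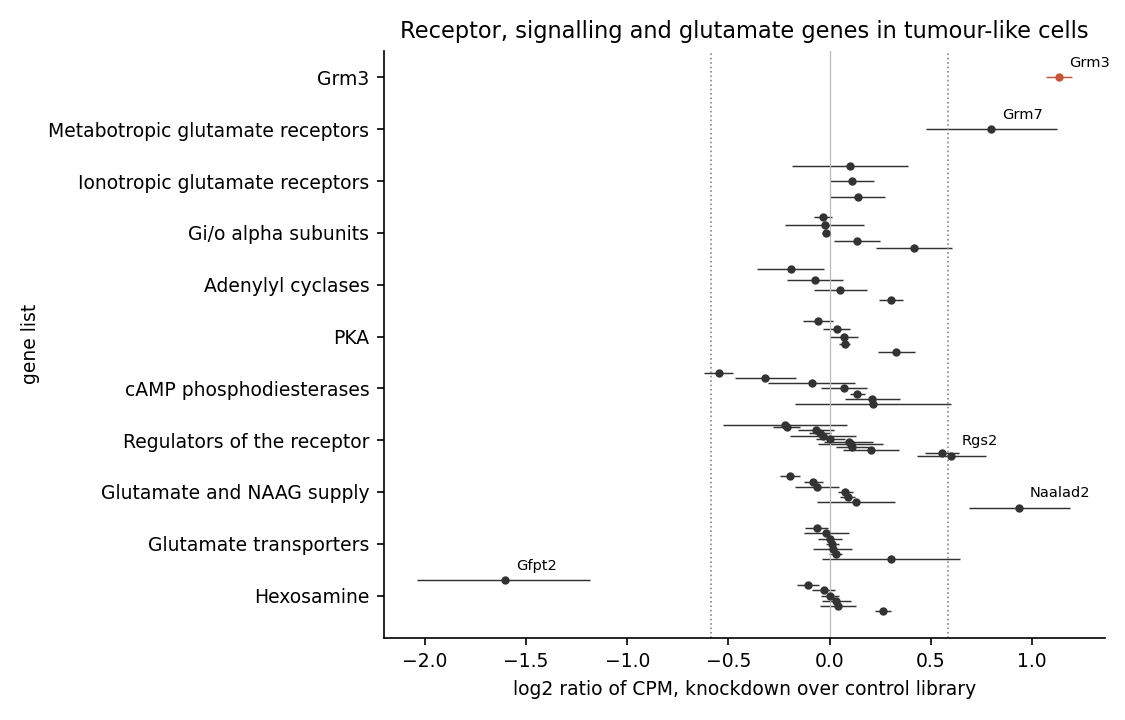
Log2 ratio of CPM, knockdown over control, with its 95% counting interval, for Grm3 and for each gene with at least 100 UMIs in 1 library from 10 lists around the receptor; dotted lines mark 1.5-fold. Grm3 lies at 1.13, Grm7, Naalad2 and Rgs2 lie past the upper line, Gfpt2 lies past the lower line, and the other genes lie between the lines.

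Genes that varied with Grm3 from cell to cell were sought by Pearson r over the thinned tumour-like cells within each library, among 7959 genes with a UMI in at least 5% of the cells of both. The coefficients after thinning were small. They ran from -0.076 to 0.079 in the control library and from -0.113 to 0.117 in the knockdown library, and no gene lay past 0.1 on the same side in both. Those at 0.05 or more in both numbered 19 (0.239%), and those at -0.05 or less in both numbered 15 (0.188%). Without thinning, on ln(1 + UMIs per 10000), 24 genes lay past 0.1, 336 at 0.05 or more and 141 at -0.05 or less in both libraries. The cells of a library share a preparation, the counts are sparse, and no relation is read from coefficients of this size.

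The highest pair of values belonged to Lgals1, the gene of galectin-1, with r of 0.079 (control) and 0.082 (knockdown). It was followed by the small nucleolar host gene Snhg4 (0.070 and 0.088), the splicing factor genes Srsf7 and Srsf1, the histone variant gene H2az1, and Pclaf, Ranbp1, Uhrf1, Nme1 and Hmgb1. The lowest belonged to the ribosomal protein gene Rps4x (-0.076 and -0.094), the surface antigen gene Ly6a (-0.071 and -0.075) and the ferritin gene Fth1 (-0.068 and -0.113), followed by Ly6c1, Pnrc1, Ubb, Fos, Rps24, Eef1a1 and Lamp2. In control cells with a Grm3 UMI, Ly6a averaged 2.91 UMIs, against 4.23 in those without. After the mean of each state was taken out, 3 genes were at 0.05 or more and 3 at -0.05 or less in both libraries. Of the 109 genes of the 10 lists, 37 had a UMI in enough cells for an r, none of them a metabotropic receptor gene, and 0 of these lay past 0.05 on the same side in both libraries.

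**Figure D5:**
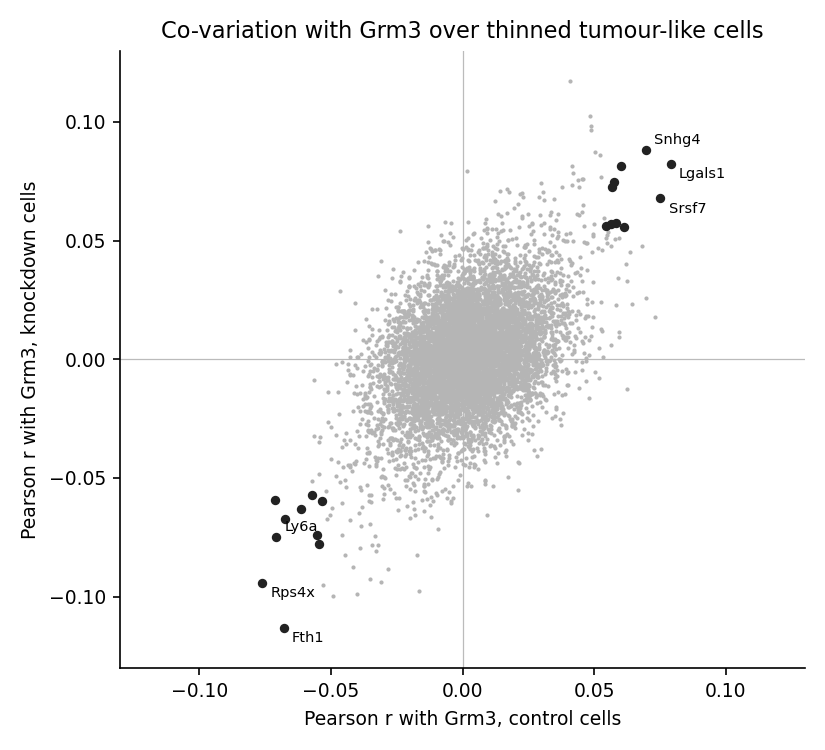
Pearson r with Grm3 over thinned tumour-like cells, control library on the horizontal and knockdown library on the vertical axis, with 1 point per gene for 7959 genes; black points are the 10 genes at each end. The cloud is centred near 0, and no gene lies past 0.1 on the same side in both libraries.

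The genes beside Grm3 were taken from their order in the RefSeq annotation of the mouse assembly GRCm38.p6, since the build behind the counts was not given in the sources used here. Of the 5 on each side, 2 are listed in the libraries. Elapor2 had 42 control and 55 knockdown UMIs in tumour-like cells, a log2 ratio of 0.65 (0.05 to 1.27), and its r with Grm3 was -0.010 and 0.022. The pseudogene Gm5152 had 1 and 2 UMIs.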

How the data were processed

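The authors deposited raw UMI counts for each gene in each cell. Per the file headers the software was Cell Ranger 6.1.0, and the submitters' processing notes list 3.1.0. Build, annotation and cell filter were not given in the sources used here. The rule for cells, the gene and the lists around it were chosen with earlier results of these data known. From the deposited counts, CPM was taken as a gene's summed UMIs per 1000000 UMIs of the same cells. Intervals are exact: Poisson for counts, conditional binomial for ratios and Clopper-Pearson for shares. No test was run. Doublets were not removed beyond the marker rules; Scrublet ranks (0.8% per 1000 cells) marked 3.61% of control and 2.89% of knockdown tumour-like cells and 16.3% and 18.5% of macrophages. Cells were thinned with a fixed seed. States came from 2000 variable genes, 30 components, 15 neighbours and Leiden resolution 1 (Python 3.11.15, igraph 0.11.9, leidenalg 0.10.2, scanpy 1.11.5, scipy 1.17.1, numpy 2.4.6). Scaling factors for an alternative came from edgeR 4.0.16 (TMM). Genes were named when they were in the lists, led a state (the 5 highest folds, with a pseudocount of 0.05 per 10000 and detection in 10% of its cells), lay beside Grm3, or were among the 10 highest or 10 lowest by the weaker r of both libraries. Some members of the lists are not reported here by name.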

Additional observations from a re-analysis of the deposited data

How the results depend on the processing

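No paired analysis was possible because each group has 1 library. Of 66 alternative values, 45 kept within their counting interval, or within 1.5 times for counts of genes, 20 moved further and 1 changed sign; the cause was not tested. The knockdown over control log2 ratio of Grm3 in tumour-like cells stayed between 1.07 and 1.20 over 12 alternatives, the highest with every cell weighted equally (1.20). Scaling by the median of ratios shifted all genes by 0.04 and TMM by 0.06. The tumour-like over macrophage log2 ratios (1.01 control, 0.68 knockdown) depended on the macrophage rule. They became 2.16 and 1.13 without the cells of highest Scrublet score, 1.45 and 0.92 with cells weighted equally, 2.10 and 1.35 against macrophages without Hmga2, and 2.43 and 1.73 against the strict set, an alternative added after the data were seen. The knockdown value alone also moved to 0.86 at 20 or more C1q UMIs and to 0.58 with macrophages of at least 5000 UMIs. The log2 ratio of shares was 0.70 without thinning. The log2 range over states became 1.75 (control) over the 13 states shared by the libraries, an alternative added after the data were seen, 2.06 (control) and 0.95 (knockdown) with each library clustered alone, and 0.91 (knockdown) at resolution 0.5. Of the 20 co-varying genes named, 9 stayed among the 20 within states and 9 without thinning. At a minimum of 20 UMIs, 904 genes were higher and 372 lower by 1.5-fold. The median log2 ratio of adenylyl cyclase, glutamate supply and transporter genes, 0.01, became -0.027 under the median of ratios. Depth limits what single cells show: a thinned cell without a Grm3 UMI may still express it.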

Other observations

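Barcodes that met neither the tumour-like nor the macrophage rule (2004 control, 1968 knockdown) had Grm3 at 27.3 CPM (24.9 to 29.9) and 58.8 CPM (54.7 to 63.1) from pooled UMIs. With every barcode weighted equally the means were 17.1 and 55.1 CPM, against 27.5 and 63.3 CPM in tumour-like cells. Those with at least 5000 UMIs, 692 and 556 cells, had 30.3 and 59.0 CPM of Grm3 and 203 and 195 CPM of Hmga2, although 91.0% and 86.7% of them had a Ptprc UMI.

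The gene with the highest r with Grm3 in the knockdown library was Lrrc8d, which encodes a subunit of the volume-regulated anion channel, with 0.117 there and 0.041 in the control library. It was singled out after its values were seen.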
